A study of Mus musculus with 5 samples.

Results

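The potassium channel genes of the mouse hippocampus were taken as every gene whose symbol starts with Kcn, apart from *Kcnj10*, *Kcnj13*, *Kcnk9* and Kcnq1ot1, which left 91 of the 23361 genes listed in each library. The rule reads gene symbols only. The 91 genes comprise 17 pore-forming voltage-gated (Kv) subunits, 10 silent Kv subunits, 5 KCNQ subunits, 8 subunits of the ether-à-go-go (EAG) family, 8 channels activated by calcium or sodium ions, 13 inward rectifiers, 13 K2P channels and 17 auxiliary subunits or regulators. Of these, 64 had a mean of at least 1 FPKM (sequenced fragments scaled to transcript length and library depth) over the 5 libraries and were tested. The other 27 were too low to test.

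Potassium channels let potassium ions leave or enter a cell along their electrochemical gradient and so hold the resting potential, end action potentials and set the rate of firing. Kv, KCNQ and EAG channels open on depolarization, calcium- and sodium-activated channels open on ion entry, and inward rectifiers and K2P channels conduct near rest. In the hippocampus, A-type currents in pyramidal cell dendrites, M-type currents at the axon initial segment, fast Kv currents in interneurons and G-protein-gated inward rectifiers are the best known examples, and astrocytes use inward rectifiers and K2P channels to clear potassium after activity.

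Total RNA of hippocampal tissue was sequenced in mice aged 3 months. The study's young animals were males. The labels call the control libraries WT. The study describes its age-matched controls as *Hdac1* f/f, taken here as the floxed gene without Cre (2 libraries). The cKO group carried *Hdac1* f/f together with the Nestin-Cre transgene (3 libraries). On that description both groups share the floxed allele, and no group with Cre alone is part of the comparison. Nestin-Cre acts in neural precursors, so that neurons and astrocytes lose HDAC1, a histone deacetylase, while microglia keep it. The comparison asks which genes differ in expression when HDAC1 is missing from the brain at a young age. The labels name no animal for a library, and the study gives as many mice in each group as there are libraries. In bulk tissue fewer cells of a type and less RNA per cell cannot be told apart. In the study's staining of young mice, the numbers of neurons, astrocytes and microglia did not differ significantly between the genotypes.

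*Hdac1* itself was at 8.95 and 13.1 FPKM for control against 1.95, 3.12 and 3.37 for cKO, a log2 difference of −1.66 (limma unadjusted p = 5.16e-05, adjusted p = 0.219). Blocking on the set gave −1.74 (adjusted p = 0.00389). The cKO mean was 25.5% of the control mean, and every cKO library lay below both controls. Estimated depth was 5140000 to 6770000 fragments per library, lowest in cKO 2. The libraries also fell into sets that cross the genotypes, with control 1 and cKO 1 in set 1 and control 2, cKO 2 and cKO 3 in set 2. Libraries of the same set shared steps in their low values, in 24.6% to 28.4% of low genes against 3.71% to 4.64% across sets. What the sets correspond to in the laboratory is not given in the labels, so differences are given below with no block term, and the value with the set as a block is added for the called members and wherever it changes a call.

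Values are listed in the order control 1 and 2, then cKO 1, 2 and 3. The summed level of the 91 genes was 1162 and 1172 FPKM (control) versus 1136, 1092 and 1129 (cKO). All cKO sums lay below both control sums, by a small margin beside the sums themselves. As a share of all FPKM this was 0.199% and 0.207% for control against 0.178%, 0.186% and 0.194% for cKO. The auxiliary subunits held 40.6% of the member sum on average, most of it from the Kv beta subunits (25.2%), followed by Kv pore subunits with 13.8%, inward rectifiers with 12%, KCNQ subunits with 8.98%, calcium- or sodium-activated channels with 8.09%, K2P channels with 6.45%, silent Kv subunits with 5.12% and the EAG family with 5.0%. Of the tested members, 17 had a mean of at least 20 FPKM, 28 a mean of 5 to 20 FPKM and 19 a mean of 1 to 5 FPKM.

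*Kcnab2*, a beta subunit that binds Kv channels of the *Kcna* family in the cytoplasm, was the highest member, with 222 to 266 FPKM. Every library had more *Kcnab2* than any library had of any other member. *Kcnip2* (55.6 to 70.1 FPKM), which encodes a calcium-binding partner of A-type channels, stood above *Kcnk1* (39.5 to 45.2 FPKM) in every library. Below *Kcnk1* the order was less certain, because neighbouring members overlapped down to the end of the list with the exception of *Kcnq3*, whose lowest library (17.8 FPKM) lay above the highest of *Kcna1* (17.3 FPKM). For 9 members (among them *Kcna6*, *Kcnab2*, *Kcnab3*, *Kcnd3*, *Kcnh7*, *Kcnj3*, *Kcnmb4* and *Kcnq5*) exons overlap those of another gene, so their values can include its reads. The median coefficient of variation of a tested member over the 5 libraries was 14.1%, a spread that includes both genotype and set.

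**Figure D1:**
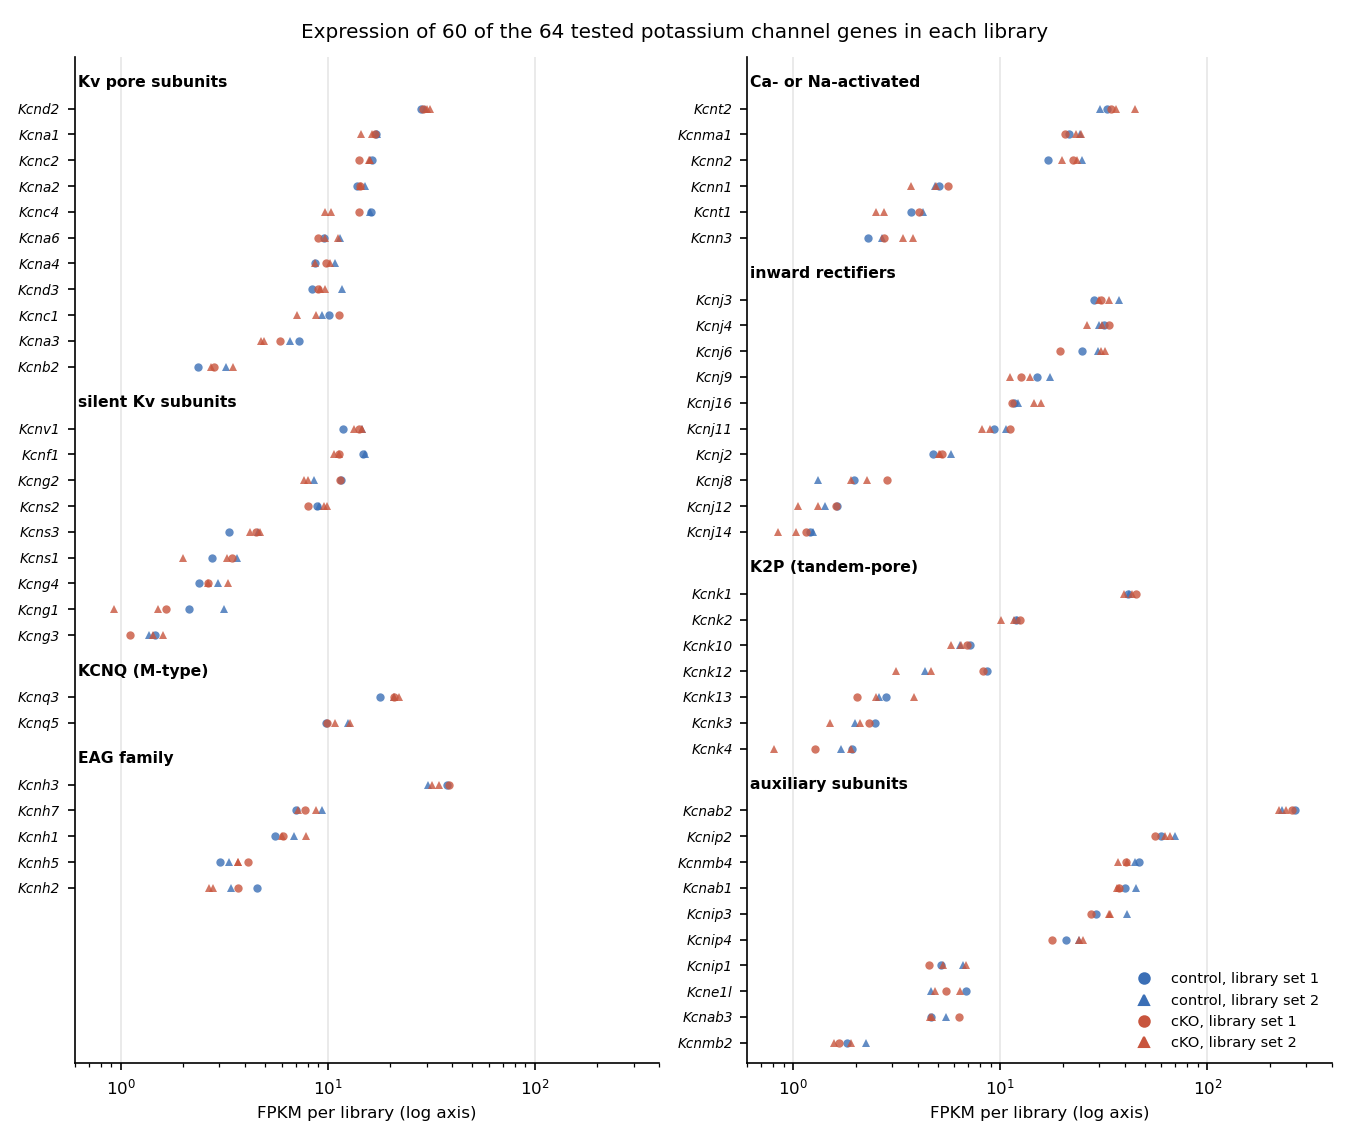
FPKM of 60 of the 64 tested potassium channel genes (rows, grouped by role and ordered by mean level) on a log axis; blue points are control and red points cKO libraries, circles library set 1 and triangles library set 2. *Kcnab2* stands apart at 222 to 266 FPKM, most control and cKO points of a gene lie together, and in *Kcnk12* the circles lie to the right of the triangles in both genotypes.

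Across the tested members, cKO and control libraries differed little. The median log2 difference of the 64 members was −0.06, beside 0.015 over all 12740 tested genes, and 45 of the 64 (70.3%) were below 0, beside 46.3% of all tested genes. With the set as a block the medians were −0.061 and 0.0043. Within set 1 the members' median was −0.03 and within set 2 it was −0.12. At an unadjusted p under 0.05, 5 members (7.81%) were lower in the cKO and 0 were higher, where 4.36% of all tested genes passed in either direction, 1.99% lower and 2.37% higher. No member passed correction over all tested genes by limma, the smallest adjusted p being 0.955. Over all genes 0.00785% (1 gene) passed. A fold of at least 1.5 together with p under 0.05 was reached by 1 member, *Kcng1* (1.56%), and by 0.659% of all tested genes.

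In 10 members (15.6%) every cKO library lay below both controls, beside 9.41% of all tested genes. In 3 members (4.69%) every cKO library lay above both, beside 11.0% of all tested genes. Among the 10 lower genes were *Kcnf1*, *Kcng1*, *Kcnc4*, *Kcnj9*, *Kcna3*, *Kcnmb4*, *Kcnab1*, *Kcna1* and *Kcnj14*, and the 3 higher genes were *Kcnt2*, *Kcnn3* and *Kcnh5*. The lower genes belong to 8 families and the higher ones to 3. The quartiles of the 64 differences were −0.14 and 0.024. The members' median also depends on the scaling, as rescaling every library to a common total moved it to −0.12, with the median of all genes at −0.045. In that scaling 20.7% of the genes under p 0.05 were higher in the cKO, beside 54.4% as deposited, and all members under p 0.05 were still lower.

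**Figure D2:**
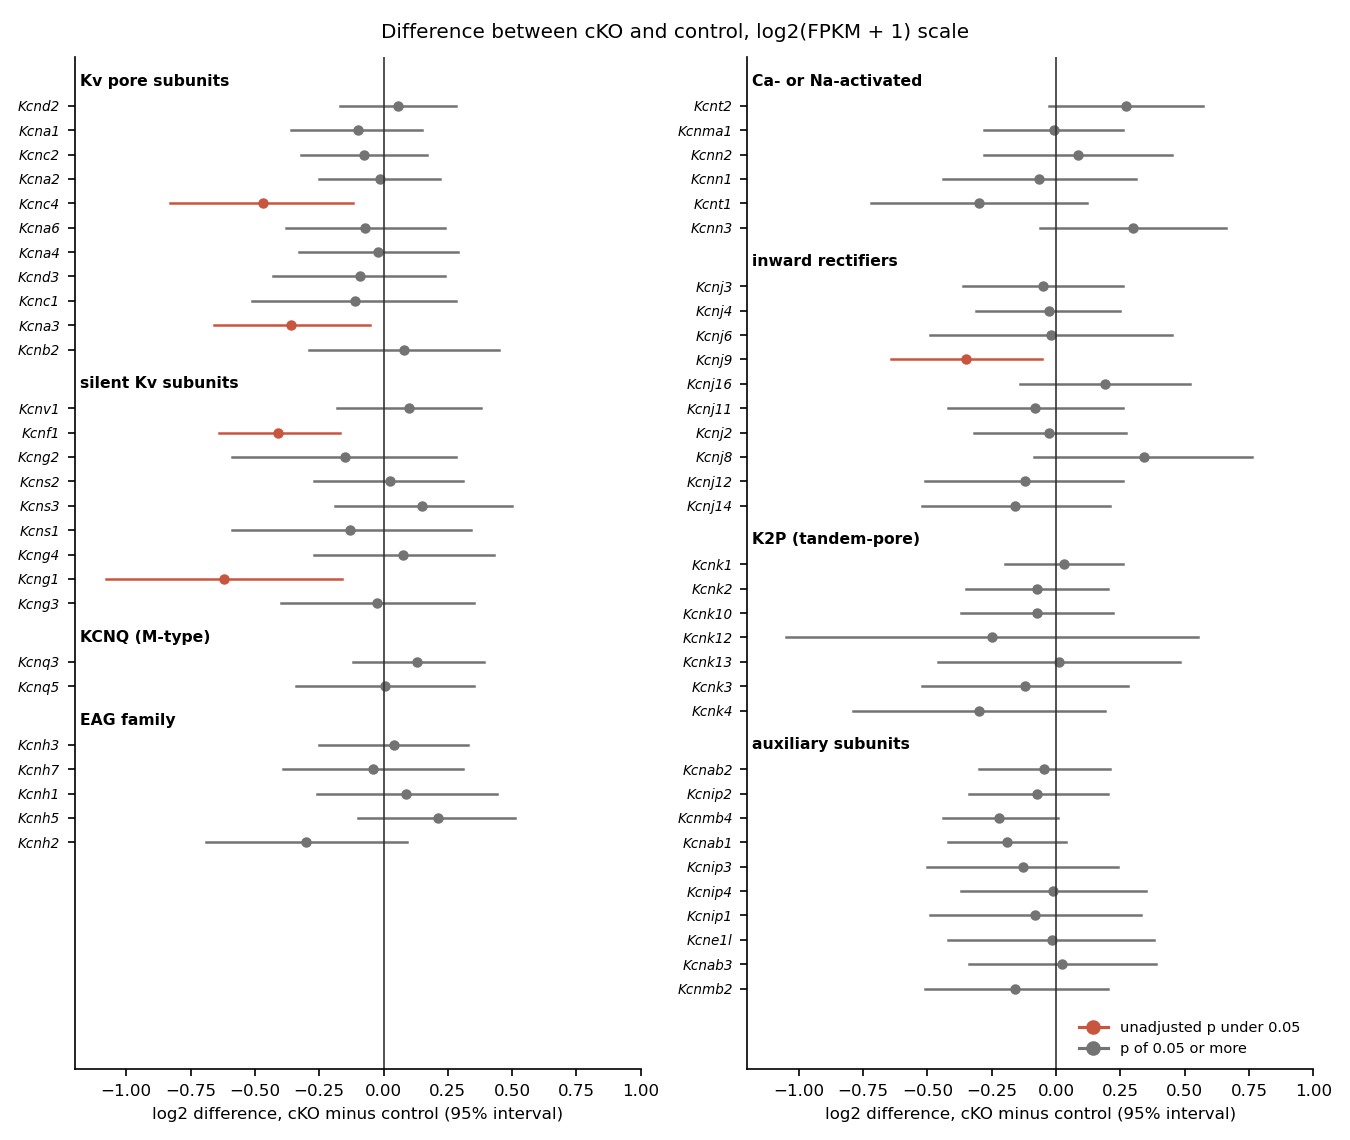
Log2 difference of cKO minus control on the log2(FPKM + 1) scale for 60 of the 64 tested members, with 95% intervals from limma, grouped by role; red marks the 5 members with an unadjusted p under 0.05. Those 5, *Kcnf1*, *Kcng1*, *Kcnc4*, *Kcnj9* and *Kcna3*, lie left of 0, and the intervals of all other members drawn include 0.

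The silent Kv subunits do not form channels alone but join *Kcnb* subunits and change how these open. Of 10 genes 9 were tested, 2 of them were lower in the cKO at an unadjusted p under 0.05 (beside 1.99% of all tested genes, here and for the families that follow), and the median difference of the 9 was −0.024 with 4 above and 5 below 0. *Kcnf1*, which encodes such a modifier and has a single exon (chromosome 12, minus strand, 17178908 to 17183694, mm9), was at 14.8 and 15.2 FPKM in control tissue against 11.3, 11.3 and 10.7 in cKO tissue. Both groups were tight and far apart, at 15.0 ± 0.346 FPKM (SD, n = 2) on average for control and 11.1 ± 0.363 (SD, n = 3) for cKO, so that the cKO held 73.8% of the control level. The log2 difference was −0.41 (SE 0.10, limma unadjusted p = 0.0042, adjusted p = 0.955). Blocking on the set gave −0.41 (unadjusted p = 0.00214). It was −0.36 within set 1 and −0.44 within set 2, and *Kcnf1* was the only member that kept an unadjusted p under 0.05 under all 18 alternatives.

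*Kcng1*, another silent subunit (chromosome 2, minus strand, 168085617 to 168107236, mm9), was at 2.14 and 3.15 FPKM (control) versus 1.66, 0.929 and 1.52 (cKO). The groups did not overlap, yet the controls differed more from each other than the lower control did from the highest cKO library. The log2 difference was −0.62 (SE 0.20, unadjusted p = 0.0147, adjusted p = 0.955), with −0.24 within set 1 and −0.91 within set 2, and with the set as a block −0.62 (unadjusted p = 0.0193). At this level each value rested on an estimated 20 to 85 fragments, and without control 2 the difference was −0.42 (unadjusted p = 0.126). The remaining silent subunits did not pass. *Kcnv1* was at 11.8 and 14.6 FPKM in control tissue against 14.2, 13.4 and 14.7 in cKO tissue, and *Kcns2* at 8.9 and 9.04 FPKM against 7.99, 9.91 and 9.62 FPKM. Their groups overlapped, as did those of *Kcng2*, *Kcng3*, *Kcng4*, *Kcns1* and *Kcns3*.

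The Kv pore subunits form the delayed rectifier, fast-spiking and A-type channels. Of 17 genes 13 were tested, 2 were lower and 0 higher in the cKO, 11 of the 13 differences were below 0 and their median was −0.093. *Kcnc4* encodes a fast-inactivating subunit of the family that repolarizes fast-spiking neurons and presynaptic terminals, at 107241221 to 107261816 of chromosome 3 (mm9, minus strand). It was at 16.1 and 16.0 FPKM (control) versus 14.1, 10.4 and 9.71 (cKO). All cKO libraries were below the controls, but cKO 1, of set 1, was nearer to them than cKO 2 and cKO 3. The cKO mean was 71.1% of the control mean, and the log2 difference was −0.47 (SE 0.16, unadjusted p = 0.0157, adjusted p = 0.955), −0.18 within set 1 and −0.62 within set 2. It was −0.43 with the set block (unadjusted p = 0.00721). Without cKO 2 the p was 0.0521, without cKO 3 it was 0.0549 and without control 1 it was 0.0521.

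*Kcnc1* and *Kcnc2*, of the same family, did not pass. *Kcnc1*, used by parvalbumin interneurons, was at 10.1 and 9.38 FPKM against 11.3, 7.11 and 8.79 FPKM. *Kcnc2* was at 16.4 and 16.0 FPKM against 14.1, 15.9 and 16.0 FPKM.

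*Kcna3* (chromosome 3, plus strand, 106839080 to 106841047, mm9) encodes a Kv subunit known from lymphocytes, microglia and presynaptic sites. It was at 7.29 and 6.56 FPKM (control) versus 5.89, 4.93 and 4.77 (cKO). The groups did not overlap, and within each genotype the set 1 library was the higher. The cKO mean was 75.1% of the control mean, with a log2 difference of −0.36 (SE 0.13, unadjusted p = 0.0273, adjusted p = 0.955), −0.27 within set 1 and −0.37 within set 2. It was −0.33 with the set block (unadjusted p = 0.0184). It no longer passed without cKO 2 (unadjusted p = 0.0669), without cKO 3 (unadjusted p = 0.0844) or without control 1 (unadjusted p = 0.15), nor with the replicate block and GC correction together, where the difference was −0.21 (unadjusted p = 0.103). *Kcna3* and *Kcnc4* share a stretch of chromosome 3 with *Kcna2* and *Kcna10*. *Kcna2*, at a gap of 63.4 kb from *Kcna3*, was at 13.9 and 15.1 FPKM in control tissue against 14.3, 14.4 and 14.3 in cKO tissue (log2 difference −0.015), and *Kcna10* was listed at 0 in all libraries but cKO 3 (0.0893 FPKM).

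The axonal subunits *Kcna1* and *Kcna2*, which sit beside the nodes of Ranvier and at the initial segment, and the A-type subunit *Kcna4* did not pass. *Kcna1* was at 17.1 and 17.3 FPKM against 17.0, 14.4 and 16.4 FPKM, with cKO 2 the lowest library. *Kcna4* was at 8.64 and 10.9 FPKM against 9.84, 10.2 and 8.65 FPKM, overlapping fully. *Kcnd2*, the dendritic A-type subunit of pyramidal cells, was at 28.2 and 29.6 FPKM against 28.9, 30.0 and 31.2 FPKM. It was among the steadiest members, with a coefficient of variation of 3.95%, and its log2 difference was 0.055 with an interval of −0.17 to 0.28. *Kcnd3*, the A-type subunit of many interneurons, was at 8.44 and 11.7 FPKM against 8.97, 9.75 and 9.14 FPKM.

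Inward rectifiers comprise strong rectifiers, G-protein-gated channels and the pore subunits of ATP-sensitive channels. Of 13 genes 10 were tested, 1 was lower, 0 were higher, 8 of the 10 differences were below 0 and the median was −0.04. *Kcnj9* encodes a G-protein-gated subunit that joins those encoded by *Kcnj3* and *Kcnj6* (chromosome 1, minus strand, 174251164 to 174259394, mm9). Its level was 15.0 and 17.4 FPKM (control) versus 12.6, 11.2 and 13.9 (cKO). The lowest control stood just above the highest cKO library. The cKO mean was 77.5% of the control mean, and the log2 difference was −0.35 (SE 0.13, unadjusted p = 0.0258, adjusted p = 0.955), −0.24 within set 1 and −0.45 within set 2. Blocking on the set gave −0.36 (unadjusted p = 0.0144). Without control 2 it was −0.24 (unadjusted p = 0.174) and without cKO 2 −0.27 (unadjusted p = 0.0767), and a correction for GC content, added after seeing the data, gave −0.27 (unadjusted p = 0.0523).

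The subunits that join *Kcnj9* did not pass. *Kcnj3* was at 28.2 and 37.6 FPKM in control tissue against 30.6, 30.1 and 33.5 in cKO tissue (log2 difference −0.052). *Kcnj6* was at 24.7 and 29.8 FPKM against 19.4, 31.9 and 30.7 FPKM, with the libraries ordered by set and not by genotype. The fourth gene of this subfamily, *Kcnj5*, was not tested at 0.0324 to 0.168 FPKM.

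In *Kcnj14*, at an estimated 14 to 22 fragments per library, every cKO library lay below both controls (1.21 and 1.25 FPKM against 1.15, 1.03 and 0.841 FPKM, log2 difference −0.16, unadjusted p = 0.353). In *Kcnj4*, *Kcnj11*, *Kcnj8* and *Kcnj16* the groups overlapped. *Kcnj4*, a strong rectifier of forebrain neurons, was at 31.6 and 29.9 FPKM against 33.5, 26.3 and 31.0 FPKM. *Kcnj11*, the neuronal pore subunit of ATP-sensitive channels, was at 9.35 and 10.6 FPKM against 11.2, 8.94 and 8.14 FPKM, and *Kcnj8*, the vascular pore subunit, at 1.96 and 1.32 FPKM against 2.85, 1.89 and 2.28 FPKM. *Kcnj8* rested on an estimated 19 to 42 fragments per library and had the highest log2 difference of any tested member, 0.34 (SE 0.18, unadjusted p = 0.104). With the set as a block it was 0.39 with an unadjusted p of 0.0306 and an adjusted p of 0.498. *Kcnj16*, a subunit of glial inward rectifiers, was at 11.7 and 12.2 FPKM in control tissue against 11.4, 15.7 and 14.5 in cKO tissue (log2 difference 0.19, unadjusted p = 0.23), so that only the set 2 cKO libraries stood above the controls.

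**Figure D3:**
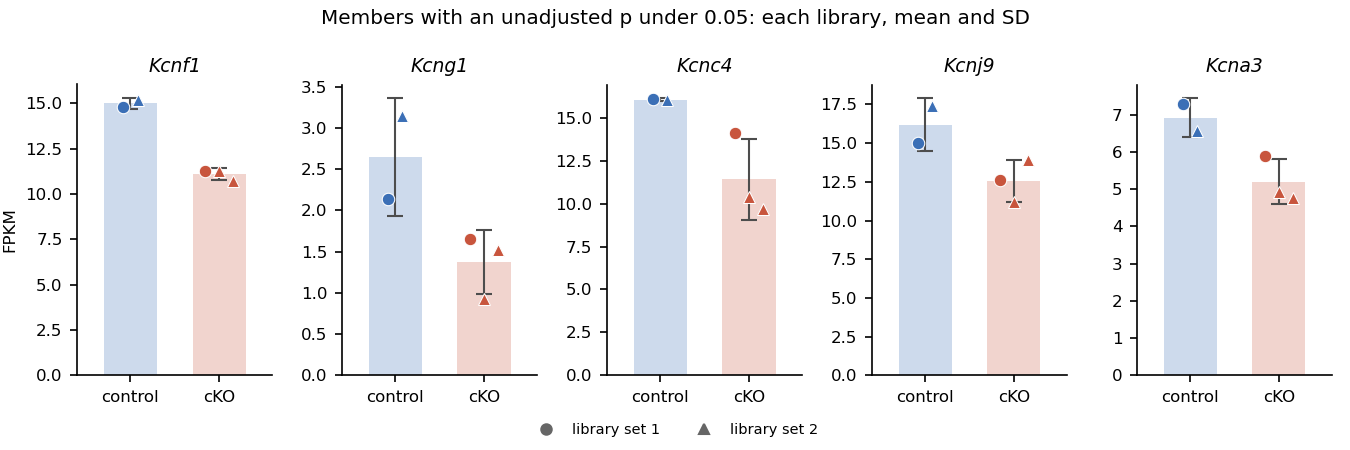
FPKM of the 5 members with an unadjusted p under 0.05 in each library; bars are group means, error bars SD (n = 2 control, n = 3 cKO), circles library set 1 and triangles set 2, and each axis starts at 0. In *Kcnf1* the groups are tight and far apart, and in *Kcnc4* the circle of the cKO (14.1 FPKM) stands near the controls.

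Promoter sequences of 4 of the 5 called genes are shown, all but *Kcng1*, because the study followed guanine-rich promoter motifs, and they show how unlike each other these members are. Of the 91 members, 67 matched the RefSeq promoter table (GRCm38.p6). The motif searched was the GC box GGGCGG on both strands, read as CCGCCC on the opposite one, in the 250 bases before each annotated start. The sequences run 5′ to 3′ on the strand of the gene, and capitals mark the motif. They lie at chr3:107035912-107036161 (*Kcna3*, plus strand), chr3:107458899-107459148 (*Kcnc4*, minus strand), chr12:17176889-17177138 (*Kcnf1*, minus strand) and chr1:172329323-172329572 (*Kcnj9*, minus strand).
Kcna3: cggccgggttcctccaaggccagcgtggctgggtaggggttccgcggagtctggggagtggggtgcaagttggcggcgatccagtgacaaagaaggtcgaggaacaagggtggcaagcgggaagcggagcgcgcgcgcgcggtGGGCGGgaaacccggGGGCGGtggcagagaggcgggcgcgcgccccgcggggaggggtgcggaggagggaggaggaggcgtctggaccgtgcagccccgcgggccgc
Kcnc4: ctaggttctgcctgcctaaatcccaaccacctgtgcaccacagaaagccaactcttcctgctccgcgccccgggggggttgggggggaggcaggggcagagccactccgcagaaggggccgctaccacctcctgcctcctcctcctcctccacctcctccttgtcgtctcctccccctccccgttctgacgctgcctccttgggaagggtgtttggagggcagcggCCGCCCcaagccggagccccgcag
Kcnf1: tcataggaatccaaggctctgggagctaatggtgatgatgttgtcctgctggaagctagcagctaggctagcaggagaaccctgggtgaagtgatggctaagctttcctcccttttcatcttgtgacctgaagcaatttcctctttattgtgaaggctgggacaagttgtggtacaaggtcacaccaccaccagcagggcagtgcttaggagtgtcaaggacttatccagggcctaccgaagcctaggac
Kcnj9: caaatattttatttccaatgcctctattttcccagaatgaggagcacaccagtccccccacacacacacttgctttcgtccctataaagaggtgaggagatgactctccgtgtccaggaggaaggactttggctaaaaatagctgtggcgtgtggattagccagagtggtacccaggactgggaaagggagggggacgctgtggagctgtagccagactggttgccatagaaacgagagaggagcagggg

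*Kcna3* has 2 such motifs and 31 CpG dinucleotides in this window, *Kcnc4* 1 motif and 12 CpG, *Kcnj9* no motif and 5 CpG, and *Kcnf1* no motif and 1 CpG. *Kcnf1* has the window poorest in CpG among these. Among 69 annotated starts of 46 tested members, 31 (44.9%) held the motif, beside 57.5% of the 12197 starts of all tested genes that matched the table and 32.7% of all 32851 annotated starts. The median number of CpG per window was 8 for tested members and 16 for all tested genes. A match in letters is a description of the sequence only.

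The KCNQ family carries the M-type current, which holds neurons back from repeated firing. Of 5 genes 4 were tested, 0 differed at an unadjusted p under 0.05 and the median was −0.014. *Kcnq3* was at 17.8 and 20.9 FPKM against 20.9, 22.0 and 20.9 FPKM (log2 difference 0.13), and *Kcnq5* at 9.76 and 12.5 FPKM against 9.92, 10.8 and 12.8 FPKM. *Kcnq1*, the cardiac and epithelial member, was not tested at 0.0537 to 0.156 FPKM.

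The EAG family held 5 tested genes of 8, with 0 differing and a median of 0.04. *Kcnh3*, its most abundant member in this tissue, was at 37.5 and 30.6 FPKM against 38.4, 31.9 and 34.6 FPKM. The libraries of set 1 stood above those of set 2 in both genotypes. *Kcnh7* was at 7.0 and 9.41 FPKM against 7.76, 8.77 and 7.17 FPKM. *Kcnh5* was at 3.03 and 3.34 FPKM against 4.12, 3.69 and 3.67 FPKM (log2 difference 0.21, unadjusted p = 0.156), with every cKO library above both controls. *Kcnh2*, known for the rapid delayed rectifier of the heart, was at 4.53 and 3.41 FPKM against 3.67, 2.78 and 2.68 FPKM. Its log2 difference was −0.30 (SE 0.17, unadjusted p = 0.116), with −0.24 within each set, and cKO 1 stood between the controls.

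Of the 8 calcium- or sodium-activated channels 6 were tested and 0 differed at an unadjusted p under 0.05. *Kcnt2*, a sodium-activated channel, was the most abundant, at 32.7 and 30.2 FPKM in control tissue against 34.2, 44.5 and 36.3 in cKO tissue (log2 difference 0.27, SE 0.13, unadjusted p = 0.069). Every cKO library was above both controls, and cKO 2 stood well above the rest. Its close relative *Kcnt1* had the opposite sign, at 3.69 and 4.24 FPKM against 4.03, 2.73 and 2.5 FPKM (log2 difference −0.30, unadjusted p = 0.14), with cKO 1 between the controls. *Kcnma1*, the pore of the large-conductance BK channel, was at 21.5 and 24.3 FPKM against 20.5, 24.6 and 23.2 FPKM (log2 difference −0.0090, interval −0.28 to 0.26).

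The small-conductance channels, which follow spikes with a hyperpolarization, did not pass either. *Kcnn2*, the form of pyramidal cell spines, was at 17.0 and 24.7 FPKM against 22.4, 19.8 and 23.4 FPKM. The spread between its controls alone covered all cKO libraries. *Kcnn3* was at 2.3 and 2.68 FPKM against 2.75, 3.79 and 3.38 FPKM (log2 difference 0.30, SE 0.16, unadjusted p = 0.0918), each cKO library above both controls.

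K2P channels carry the background leak of neurons and astrocytes. Of 13 genes 7 were tested, 0 differed and the median was −0.076. *Kcnk1*, abundant in astrocytes, was at 41.3 and 42.0 FPKM against 45.2, 39.5 and 43.1 FPKM (log2 difference 0.031, interval −0.20 to 0.26). *Kcnk2*, a mechanosensitive channel, was at 11.9 and 12.1 FPKM against 12.5, 10.1 and 11.6 FPKM, and *Kcnk3*, an acid-sensitive one, at 2.48 and 1.98 FPKM against 2.33, 2.1 and 1.51 FPKM. In all of these the groups overlapped.

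Auxiliary subunits bring channels to the membrane and tune their gating. Of 17 genes 10 were tested, 0 differed at an unadjusted p under 0.05, but 9 of the 10 differences were below 0, with a median of −0.077. *Kcnab2* was at 266 and 229 FPKM in control tissue against 255, 222 and 241 in cKO tissue (log2 difference −0.048, interval −0.30 to 0.21). *Kcnab1*, the inactivating beta subunit, was at 39.9 and 45.4 FPKM against 37.4, 37.5 and 36.6 FPKM (log2 difference −0.19, unadjusted p = 0.089). Its cKO libraries lay close together below both controls, and with the set as a block the difference was −0.20 (unadjusted p = 0.0297, adjusted p = 0.498). *Kcnmb4*, the neuronal beta subunit of the BK channel, was at 46.8 and 44.9 FPKM against 40.3, 40.8 and 37.1 FPKM, and all cKO libraries were lower. Its log2 difference of −0.22 (SE 0.10, interval −0.44 to 0.0065) had a p of 0.0556. Blocking on the set gave −0.21 (unadjusted p = 0.0246, adjusted p = 0.497). Its cKO mean was 85.9% of the control mean.

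The calcium-binding partners of A-type channels, *Kcnip1* to *Kcnip4*, were higher in library set 2 in both genotypes. *Kcnip2* was at 59.4 and 70.1 FPKM against 55.6, 62.6 and 66.0 FPKM. *Kcnip3*, also known as the transcriptional repressor DREAM, was at 28.9 and 41.0 FPKM against 27.4, 33.5 and 33.7 FPKM, and *Kcnip4* at 20.7 and 23.9 FPKM against 17.8, 25.0 and 24.1 FPKM. In all 4 genes both set 1 libraries were the lowest. The set difference had an unadjusted p under 0.05 in each, and was 0.22 (*Kcnip2*) to 0.37 (*Kcnip3*) on the log2 scale. Between the genotypes *Kcnip3* overlapped, with a log2 difference of −0.13 (unadjusted p = 0.44), and blocking on the set gave −0.19 (unadjusted p = 0.0403, adjusted p = 0.519). Together with GC correction that block gave −0.16 (unadjusted p = 0.0506). Without the block, leaving out 1 library moved the difference from −0.38 (without control 1, unadjusted p = 0.0453) over −0.036 (without cKO 1) to 0.11 (without control 2). *Kcne1l*, the most abundant *Kcne* gene, was at 6.8 and 4.61 FPKM against 5.49, 6.36 and 4.85 FPKM.

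The library sets were compared with genotype in the model. In that fit 14 members (21.9%) differed between sets at an unadjusted p under 0.05, 7 higher and 7 lower in set 2, beside 22.9% of all tested genes. 1 member (1.56%) passed correction by limma, beside 3.09% of all tested genes. This was *Kcnk12*, a K2P subunit, at 8.64 FPKM in control 1 and 8.28 FPKM in cKO 1, and at 4.34 FPKM in control 2, 3.15 FPKM in cKO 2 and 4.65 FPKM in cKO 3. Its set difference was −0.90 on the log2 scale (adjusted p = 0.0329), while the genotypes differed by −0.25 (unadjusted p = 0.486), and both sets hold libraries of both genotypes. Lower in set 2 were also, among others, *Kcng2*, *Kcnh3*, *Kcnh2* and *Kcnab2*, and higher were *Kcnj6*, *Kcnq5*, *Kcnma1* and the 4 *Kcnip* genes. With the set as a block, 9 members (14.1%) had an unadjusted p under 0.05 between genotypes, 8 lower and 1 higher, beside 9.34% of all tested genes, and all 5 genes named above were among them. The other 4 were *Kcnab1*, *Kcnip3*, *Kcnmb4* and *Kcnj8*.

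**Figure D4:**
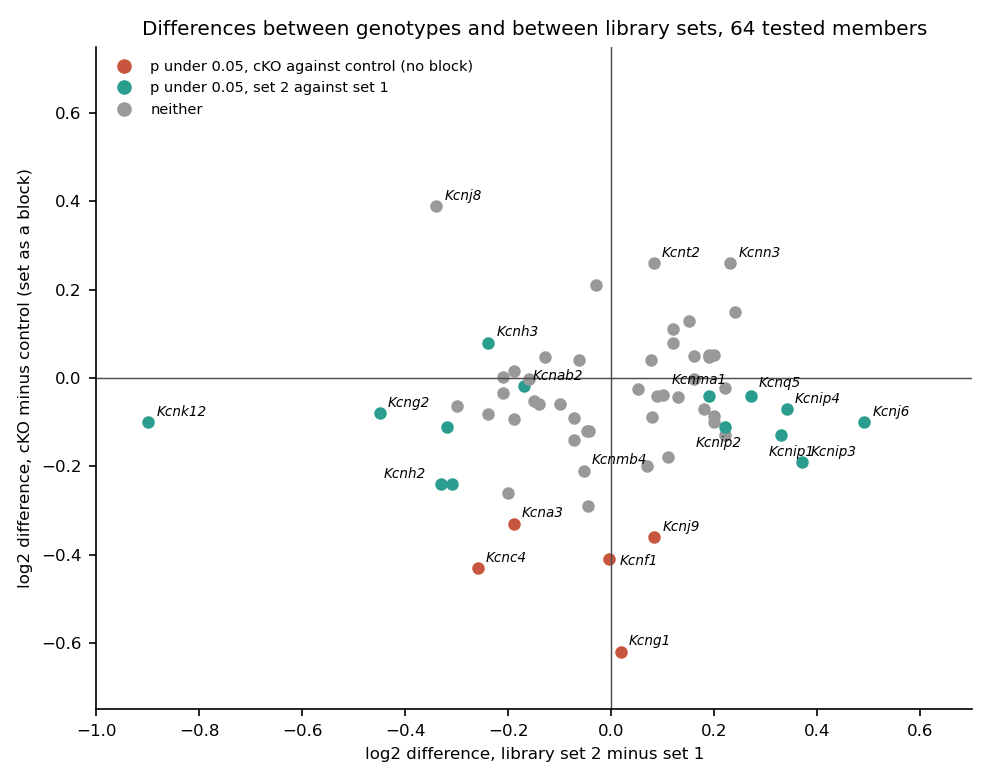
Each point is 1 of the 64 tested members, with the log2 difference between library sets (set 2 minus set 1) across and the log2 difference between genotypes (cKO minus control, set as a block) upward; red marks p under 0.05 between genotypes without a block, green p under 0.05 between sets. The red genes spread downward near the middle of the horizontal axis, whereas *Kcnk12* lies far to the left at −0.90 with a genotype difference of −0.10.

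The set difference ran with base composition. Across the 64 tested members its correlation with the GC content of the longest coding transcript was r = −0.64 (Spearman's rho −0.60), beside r = −0.38 over 11760 tested genes with a GC value. *Kcnk12* and *Kcng2*, at 70.2% and 68.7% GC, were the members lowest in set 2. For the difference between genotypes it was r = −0.40 (rho −0.44) for the members and −0.33 for all genes, and with the set as a block r = −0.27 and −0.25. These points share the same 5 libraries and are not independent, so no p is given. Of the 32 members above the median GC of 53.7%, the median genotype difference was −0.12 and all 5 called genes were among them. For the 32 at or below it the median was −0.022 and 0 were called. After correction for GC content within each library, added after seeing the data, 4 of the 5 genes kept an unadjusted p under 0.05, *Kcnj9* being the exception. With the replicate block as well, 4 of the 5 passed and *Kcna3* did not, and with the set block as well all 5 passed (*Kcna3* at an unadjusted p of 0.0499). The part of base composition in the remaining differences was not tested.

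**Figure D5:**
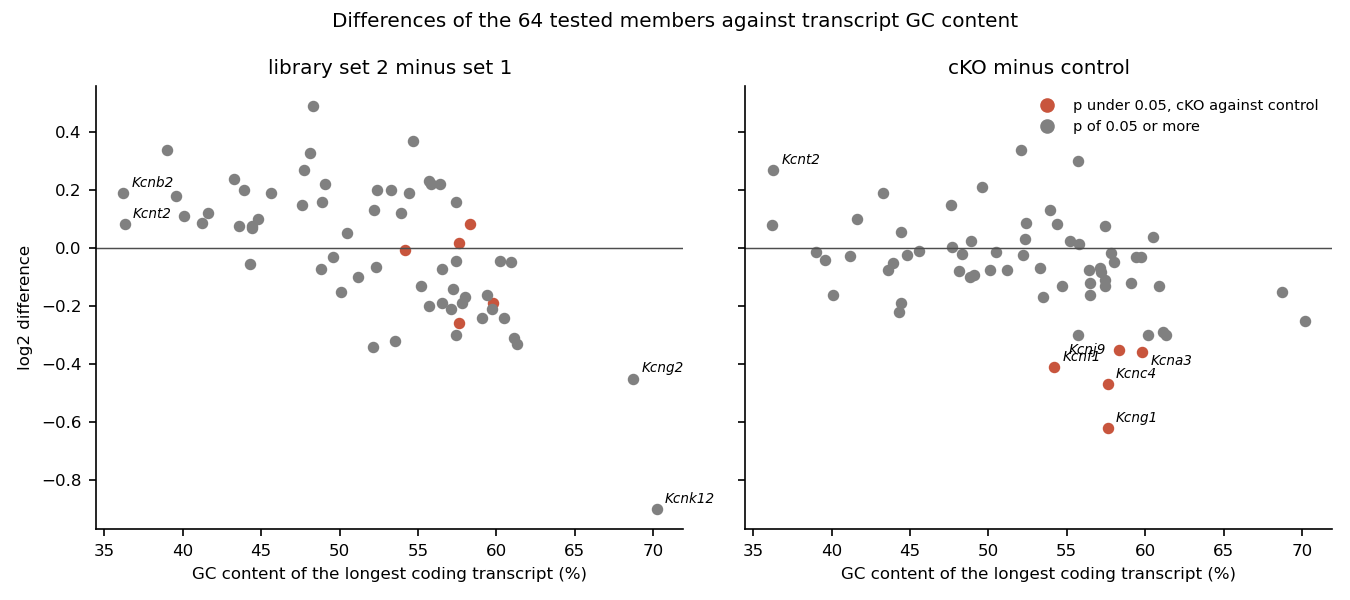
Log2 difference between library sets (left) and between genotypes (right) of the 64 tested members against the GC content of their longest coding transcript in percent; red marks the 5 members with p under 0.05 between genotypes. The left panel slopes down to *Kcnk12* at 70.2% GC and −0.90, and in the right panel all red points lie above 53.7% GC.

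Other genes of potassium handling were examined from a list of 46 channel partners, pumps, cotransporters and neighbouring cation channels, of which 41 were tested. At an unadjusted p under 0.05, 2 (4.88%) were lower in the cKO and 0 higher, beside 4.36% of all tested genes in either direction, and the median difference was −0.018. With the set as a block 7 (17.1%) were lower and 0 higher, beside 9.34% of all tested genes. Among the lower genes was *Slc12a5*, the neuronal potassium-chloride cotransporter that keeps chloride low for inhibition. It was at 53.5 and 54.0 FPKM in control tissue against 49.2, 42.0 and 45.3 in cKO tissue (log2 difference −0.24, unadjusted p = 0.0473, adjusted p = 0.955). The controls lay close together and every cKO library was lower. The A-type partners *Dpp6* (log2 difference −0.14) and *Dpp10* (−0.30) and the pacemaker channel *Hcn2* (−0.30, unadjusted p = 0.186) did not pass without the block. With it *Dpp6* was at −0.20 (unadjusted p = 0.0371), *Dpp10* at −0.37 (unadjusted p = 0.0278) and *Hcn2* at −0.21 (unadjusted p = 0.0245). The set difference of *Hcn2* was −0.54.

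Markers of cell types were summed in each library to show what moved beside the channel genes, and called at an unadjusted p under 0.05, which 4.36% of all tested genes passed. The 12 neuron markers summed to 2939 and 3198 FPKM in control tissue against 2922, 2782 and 3100 in cKO tissue, with 2 of 12 lower (*Stmn2* and *Nefm*) and a median of −0.14. The 10 interneuron markers summed to 880.8 and 924.8 FPKM against 902.1, 879.8 and 894.2 FPKM, with 1 lower, the GABA transporter *Slc32a1* (−0.54), and a median of −0.022. The 12 astrocyte markers summed to 4174 and 4107 FPKM against 4364, 4370 and 4466 FPKM, with 2 higher (*Aqp4* by 0.78 and *Gfap* by 0.43) and a median of 0.069. The study's staining of young mice, a measure of protein and not of RNA, found no difference in GFAP intensity or astrocyte number. The 11 markers of thalamus and neighbouring tissue summed to 55.01 and 55.31 FPKM against 42.7, 42.09 and 40.84 FPKM, with 2 of 8 tested lower, *Tshz2* (−0.96) and *Slc17a6* (−0.62). The lower sum lay mostly in these genes. The median of the 8 was 0.0089, with markers on both sides of 0. *Lef1* (−0.24) and *Rora* (−0.036) were also below 0, while *Prkcd* (0.10), *Zic1* (0.12), *Rgs16* (0.054) and *Plekhg1* (0.18) were above. Of the untested markers, *Tcf7l2* lay below both controls in every cKO library (mean 65.2% of control) and *Synpo2* above both (125%). No marker of the neuron, interneuron or astrocyte lists was at 0 in any library, and *Gbx2* of the thalamic list was at 0 in all libraries but cKO 1 (0.107 FPKM). Of the granule cell, CA1, oligodendrocyte, microglia, endothelium, mural cell and choroid plexus lists 0 markers passed, and of the 9 CA3 and CA2 markers 1 was higher (*Coch* by 0.64). With the set as a block the oligodendrocyte genes *Olig2* (−0.30) and *Ugt8a* (0.25), the microglial gene *C1qb* (−0.23) and the endothelial gene *Ly6c1* (−0.23) passed an unadjusted p of 0.05, as did 3 neuron, 2 interneuron and 5 astrocyte markers, beside 9.34% of all tested genes. Neuron, granule cell and pyramidal cell markers were all present, as the tissue label states. The part of these shifts in the channel genes was not tested.

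The 27 members that were not tested are those with little expression in this tissue. Listed at 0 in all 5 libraries were *Kcna7*, *Kcne1*, *Kcnj1*, *Kcnj15*, *Kcnk15*, *Kcnk16*, *Kcnmb3* and *Kcnv2*. The other 19 had a value in at least 1 library, with the highest mean at 0.787 FPKM (*Kcna5*). *Kcne2*, an epithelial subunit of the choroid plexus, was at 0.288 and 0 FPKM (control) versus 0.678, 2.85 and 0 (cKO). The choroid plexus gene *Ttr* was at 157 and 1.33 FPKM against 67.9, 589 and 20.7 FPKM. For both genes cKO 2 was the highest library and control 2 the lowest or among the lowest.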

How the data were processed

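The authors aligned the reads to mm9 with Tophat2 and made the deposited FPKM values with Cufflinks 2.0.0. The test behind their threshold and the strand setting are not given in the sources used here. Genes averaging 1 FPKM or more (12740) were compared as log2(FPKM + 1) by limma 3.58.1 in R 4.3.3 (lmFit, eBayes with a trend, genotype as the only term, all 5 libraries, two-sided, Benjamini-Hochberg over all tested genes). This scale understates changes of low genes. The code was tested on simulated data. Members and lists were chosen with earlier results of these data known. Named one by one were members under p 0.05, the highest tested member of each family and a list of members with textbook roles, 42 in all, some of which are not reported here. *Kcnab1*, *Kcnh2*, *Kcnh5*, *Kcnip1*, *Kcnj5*, *Kcnj14*, *Kcnk12*, *Kcnq1* and the silent, untested or overlapping genes in lists were named after their values were seen. Positions come from GENCODE vM1 (mm9), which has 89 of the 91 members. Depth was estimated from steps in low values. No read counts were used. Alternatives were another pseudocount (0.1), other minimums (none, 5 FPKM), rescalings, no variance trend, the replicate block, the set block, leaving out each library, and GC correction, added after seeing the data. Copies were searched with BLAST 2.17.0.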

Additional observations from a re-analysis of the deposited data

How the results depend on the processing

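No member passed correction by limma under any of the 18 alternatives, and 0 did as reported, where 5 had an unadjusted p under 0.05. The lowest adjusted p of those 5 in any alternative was 0.296 (*Kcnf1*). The members' median stayed below 0 in all of them, at −0.12 after rescaling to a common total, and between −0.014 and −0.086 without 1 library. The number of members lower in the cKO was 8 with the set block and ranged from 2 (without cKO 2) to 8 (without cKO 1). Of the 12740 tested genes, 512 were lower with the set block, 173 without cKO 2 and 476 without cKO 1. In the same fits 678, 214 and 494 of them were higher. The number of members higher was 1 with the replicate block, 1 with the replicate block and GC correction and 1 with the set block. It was 2 with the set block and GC correction, and went from 0 (without cKO 2) to 3 (without cKO 1). Past fold 1.5 there were 0 members with GC correction, 0 with the set block and GC correction, 0 at a minimum of 5 FPKM, and from 0 to 2 without 1 library. The *Hdac1* difference ranged from −1.41 to −1.91 without 1 library, with an unadjusted p under 0.05 in all 18 alternatives and an adjusted p of 0.00199 to 0.825. Of all genes, 836 passed p 0.05 with no minimum, 1430 with the replicate block, 1170 with the replicate block and GC correction, 1190 with the set block, 1153 with the set block and GC correction, and 387 to 970 without 1 library. Past fold 1.5 as well were 43 at a minimum of 5 FPKM, 142 at a pseudocount of 0.1, 133 with the replicate block, and 92 to 231 without 1 library. The cause of these shifts was not tested.

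Same-numbered libraries of the groups deviated together, with r = 0.402 for number 1 and 0.269 for number 2 over all tested genes, and 0.484 and 0.343 over the members. Each such pair also lies inside a set, while cKO 3, which has no control of its number, shared its steps with control 2 (25.4% of low genes) and cKO 2 (28.4%). With this replicate block 8 members passed p 0.05, the 5 reported ones and 3 more, among them *Kcnk4* and *Kcnt2*, beside 1430 of the 12740 tested genes. Of all tested genes, 387 passed without cKO 2, 431 without cKO 3 and 970 without cKO 1. Without 1 library, the members passing were 2 (cKO 2), 4 (cKO 3, control 1 or control 2) or 11 (cKO 1), and *Kcnf1* was the only gene among all of them. Of 751 values for the 42 named genes under the alternatives, 692 kept their call and size, 11 lost the call (*Kcna3*, *Kcnc4*, *Kcng1* and *Kcnj9*), 24 gained it (9 genes), 24 moved by more than the spread between replicates, and none of the called values changed sign.

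The comparison rests on 2 against 3 libraries of 5140000 to 6770000 estimated fragments, which leaves members near 1 FPKM with few fragments. FPKM hold no counts, so no counting interval can be given. The share of members that differ between the library sets (21.9%) is near that of all tested genes (22.9%), and set 1 holds 1 library of each genotype.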

Other observations

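Among the partner lists, the 8 voltage-gated sodium channel genes were all tested. At an unadjusted p under 0.05, 0 differed between the genotypes, beside 4.36% of all tested genes, and their median log2 difference was 0.051. Between the library sets 4 of the 8 differed at that threshold, beside 22.9% of all tested genes. The 8 axonal partners of *Kcna* channels had a median of −0.047, with 0 differing between genotypes and 5 between sets. With the set as a block 2 of the 8 (25.0%) were lower in the cKO, beside 9.34% of all tested genes in either direction. These were *Cntnap1* (−0.24, unadjusted p = 0.0161) and *Dlg4* (−0.17, unadjusted p = 0.0228). The 3 partners of *Kcnb* channels had a median of 0.10.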
